A study of Bos taurus with 9 samples.

Results

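The major histocompatibility complex (MHC) of cattle lies on chromosome 23 and is called BoLA. It was studied here as all peaks that start between 25 and 29 Mb of chromosome 23 on the assembly UMD3.1.1, a rule that uses position only. The region held 578 of the 130580 peaks in the 8 lists, and 3703 peaks lay on the rest of chromosome 23. The peaks came from chromatin immunoprecipitation followed by sequencing (ChIP-seq) of rumen tissue from Holstein calves, collected before weaning or after weaning, with no other treatment or genotype given in the labels. There was 1 library for each of 4 targets at each of the 2 time points, so no difference between time points has a replicate error and none was tested. Antibodies were directed at acetylated histone H3 (H3K9ac at lysine 9 and H3K27ac at lysine 27), at the trimethylated form of lysine 9 (H3K9me3) and at RNA polymerase II (RNA pol II). Time points are those of the labels. For RNA pol II the text of the study gives the shorter list to the time before weaning and the labels give it to the time after weaning, and the lists themselves do not settle which is right. If the labels of RNA pol II are exchanged, its peaks in the region belong to the time after weaning and each of its directions below turns round. Neither the age of the calves nor the number behind a library was given in the labels, and the labelled tissue could not be checked against its markers without an annotation of this assembly.

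The MHC encodes the proteins that show peptides to T cells. Class I genes act in nearly all nucleated cells and present peptides made inside the cell, class II genes act mainly in antigen-presenting cells, and the gene-dense class III stretch holds complement, heat shock and cytokine genes. In cattle the class II genes are split into a IIa block next to class III and a IIb block at a distance. H3K9ac marks active promoters, H3K27ac marks active promoters and enhancers, RNA pol II transcribes genes and H3K9me3 marks silenced chromatin.

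Gene names in order were taken from RefSeq on another assembly, ARS-UCD2.0, so no peak was assigned to a gene and the peaks are named by position. On that assembly the IIa block runs from BOLA-DQA2 to BTNL2 and holds BOLA-DRB3 and BOLA-DRA, which encode the chains of the DR molecule. It is followed by class III from NOTCH4 to MCCD1, with C4A and CFB (complement), HSPA1A (a heat shock protein) and TNF, LTA and LTB (cytokines). Class I follows, from MIC2 to GABBR1, with JSP.1 and BOLA-NC1 (class I heavy chains) and POU5F1 (a transcription factor). Of the genes listed for each block, 7 of 9 in IIa, 42 of 45 in class III and 34 of 37 in class I were found, and 178 gene entries, 133 of them protein coding, lay from BOLA-DQA2 to GABBR1. All 11 genes listed for class IIb, among them the peptide transporter genes TAP1 and TAP2, formed a separate block from BOLA-DYA to BOLA-DOA.

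The first question was whether the MHC region carried more called peaks than the rest of its chromosome. For both acetylation marks and RNA pol II before weaning it did. The region makes up 7.62% of the 52.5 Mb of chromosome 23 that the peaks span. H3K9ac had 103 peaks in the region before weaning, 25.8 per Mb against 9.01 per Mb on the rest of the chromosome, a ratio of 2.86 (95% interval 2.28 to 3.55). H3K27ac had 303 peaks, 75.8 against 43.0 per Mb, a ratio of 1.76 (1.56 to 1.99). RNA pol II had 14 peaks, 3.50 against 1.38 per Mb, a ratio of 2.53 (1.31 to 4.55), which became 1.99 (0.908 to 3.91) with peaks within 1 kb merged. All intervals cover counting error alone and treat peaks as independent, which neighbouring peaks are not.

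After weaning, H3K27ac kept a ratio on the same side of 1, with 144 peaks at 36.0 against 17.9 per Mb (2.01, 1.67 to 2.40). H3K9ac had 11 peaks, and its ratio of 2.02 had an interval that included 1 (0.962 to 3.85). That interval did not include 1 against chromosomes 1 to 29 and X, at 3.45 (1.72 to 6.18). By the labels, RNA pol II had no peak in the region after weaning, where the density of the rest would give 2.06. H3K9me3 had no peak before weaning and 3 after, where the density of the rest would give 5.69 and 7.01. Much of the density of the rest in these short lists came from 1 stretch, from 9 to 13 Mb. With it left out of the rest, a setting chosen after seeing the data, 0.360 RNA pol II peaks after weaning and 2.97 and 4.67 H3K9me3 peaks before and after weaning would fall in a region of this length.

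In covered length, H3K27ac peaks took up 4.40% of the region before weaning (176082 bp) and 2.03% of the rest of the chromosome. After weaning they took up 1.39% (55744 bp) and 0.622%. H3K9ac covered 35650 bp before and 2932 bp after weaning, and RNA pol II covered 5975 bp before weaning. The median width of peaks in the region was 410 bp against 351 bp for H3K27ac before weaning, 308.5 against 287 bp after weaning, 285 against 264 bp for H3K9ac before weaning and 344.5 against 298 bp for RNA pol II before weaning. The interval of the region's median excluded that of the rest for H3K27ac after weaning only (288 to 342 bp), and the 3 H3K9me3 peaks after weaning were narrower, at a median of 216 against 312 bp.

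Among 13 consecutive windows of 4 Mb, counted from 1 Mb, the region was the seventh and had the most H3K9ac peaks before weaning (103, next 73) and the most H3K27ac peaks before weaning (303, next 287). After weaning it was second for H3K27ac (144 against 152) and for H3K9ac (11 against 22). It was also second for RNA pol II before weaning, with 14 against 22 in the third window, from 9 to 13 Mb. That window held 21 of the 25 RNA pol II peaks of the chromosome after weaning, and 36 and 33 H3K9me3 peaks before and after weaning. With it taken out of the rest, the density ratios given above for the acetylation marks and for RNA pol II before weaning stayed within their intervals, but that of H3K9ac after weaning, at 2.78 (1.29 to 5.47), no longer included 1.

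**Figure D1:**
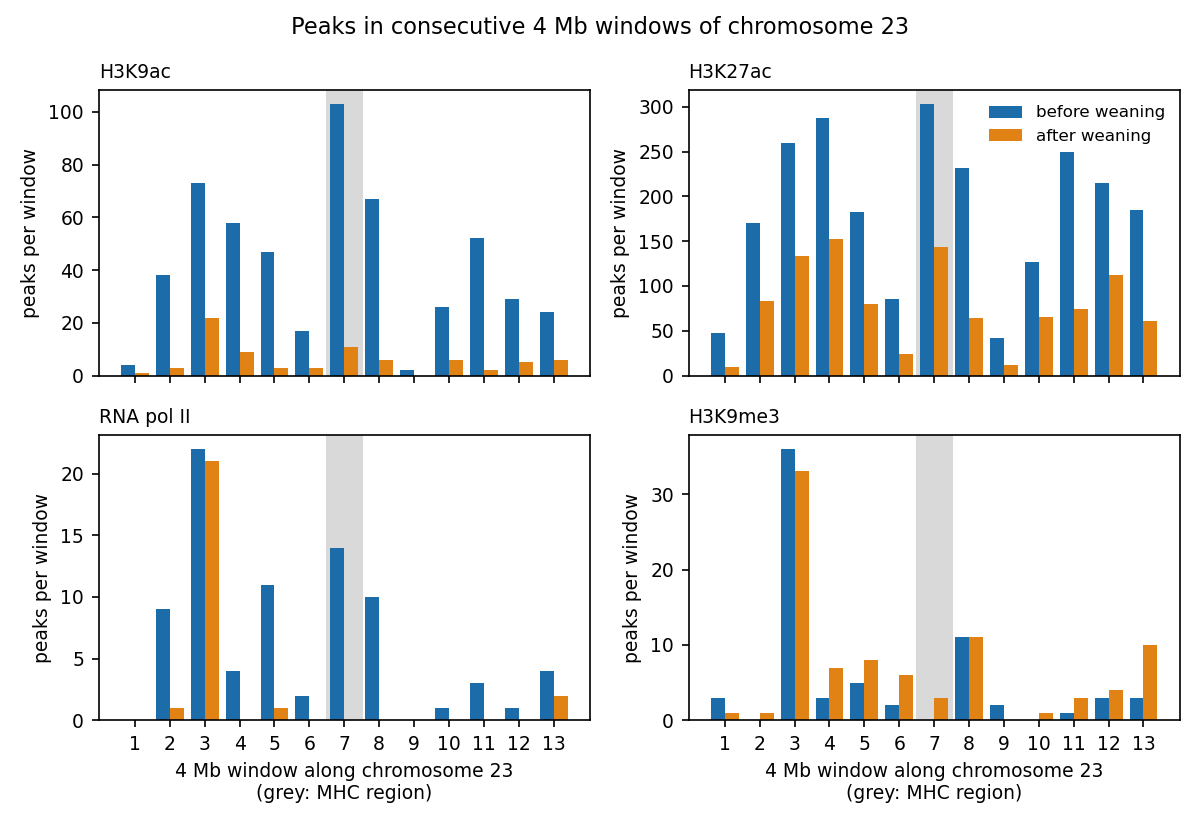
Number of called peaks (vertical axis, peaks per window) in 13 consecutive 4 Mb windows of chromosome 23 (horizontal axis, window number; the last is 3.496 Mb long) for each target before weaning (blue) and after weaning (orange), with 1 library per bar. The MHC region is window 7, shaded grey, and has the tallest bars for H3K9ac and H3K27ac before weaning, whereas window 3 has the tallest bars for RNA pol II and H3K9me3.

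The peaks were spread very unevenly over the 16 bins of 250 kb into which the region was divided, numbered from its start. Before weaning, H3K27ac had 78 peaks in bin 10, 67 in bin 13 and 50 in bin 9, and 108 in the other 13 bins. H3K9ac had 33, 25 and 18 peaks in the same bins and 27 in the others. Bins 9 and 10 span positions 27000001 to 27500000, and bin 13 spans 28000001 to 28250000. Bin 10 held the most peaks of all 209 bins of the chromosome and bin 13 the second most, for both acetylation marks. The fullest bin elsewhere on the chromosome had 60 H3K27ac peaks and 23 H3K9ac peaks before weaning. After weaning, bin 13 was the fullest of the chromosome for H3K27ac, with 51 peaks against at most 35 outside the region, and bins 10 and 9 followed within the region with 33 and 28.

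Of the 14 RNA pol II peaks before weaning, 8 lay in bin 13, 4 in bin 10, 1 in bin 9 and 1 in bin 15. Bins 9, 10 and 13 thus held 13 of these 14 peaks, 76 of 103 H3K9ac peaks and 195 of 303 H3K27ac peaks before weaning, and 7 of 11 and 112 of 144 after weaning. None of the H3K9me3 peaks lay there. These bins are named because they were full, so the same share of the fullest bins was also taken from the rest of the chromosome. It held 58.9% of the H3K27ac peaks there before weaning, against 64.4% in the region, and 68.4% of the H3K9ac peaks, against 73.8%. After weaning it held 70.3% of the H3K27ac peaks, against 77.8% in the region, and 89.4% of the H3K9ac peaks, against 72.7% in the 3 fullest bins of the region. Without these bins on both sides, H3K27ac before weaning still had 33.2 peaks per Mb in the region and 21.8 per Mb elsewhere, a ratio of 1.53 (1.24 to 1.86).

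**Figure D2:**
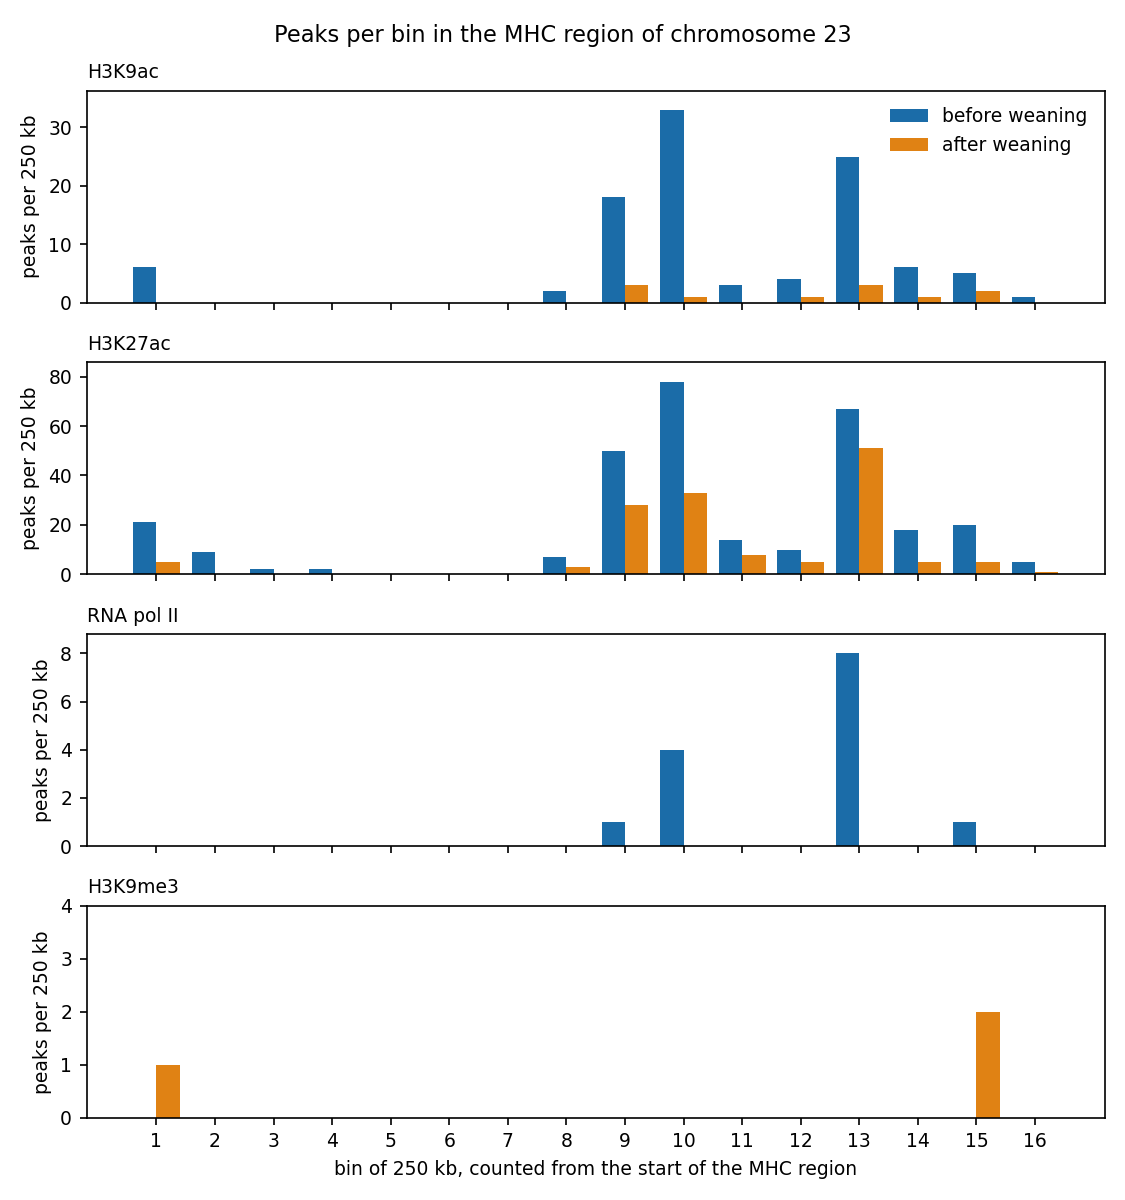
Number of called peaks (vertical axis) in each of the 16 bins of 250 kb of the MHC region (horizontal axis, bin number from the start of the region) for each target before weaning (blue) and after weaning (orange), with 1 library per bar and a separate vertical scale in each panel. Bins 9, 10 and 13 stand above the others for H3K27ac at both time points and for H3K9ac before weaning, bins 5 to 7 have no peak of any target, and RNA pol II has no peak after weaning.

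The other bins were sparse. No list had a peak in bins 5, 6 and 7, and the stretch without any peak ran for 1110 kb from 25863033 to 26973073, the third longest of the 2742 gaps between peaks on chromosome 23. The next longest gaps within the region, of 267.3 kb from 25594432 to 25861727 and 157.6 kb from 25272222 to 25429850, also lay in the left part. The first 2 Mb of the region held 41 H3K27ac peaks before weaning and 8 after, and 8 and 0 H3K9ac peaks. Most of these were at the left edge, where bin 1 had 21 H3K27ac and 6 H3K9ac peaks before weaning and 5 H3K27ac peaks after. The last 3 bins held 43 H3K27ac peaks before weaning and 11 after.

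Both acetylation marks filled the same bins. Across the 16 bins, the numbers of H3K9ac and H3K27ac peaks before weaning had a Pearson's r of 0.991 and a Spearman's rho of 0.945, against 0.839 and 0.865 over the 193 bins of the rest. H3K27ac before and after weaning had an r of 0.939 and a rho of 0.920, against 0.830 and 0.844. The points share their libraries and neighbouring bins are not independent, so these values are a description.

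The second question was how the region changed at weaning. H3K9ac fell from 103 to 11 peaks, a ratio of 0.107 (0.0517 to 0.199), and the rest of the chromosome fell from 437 to 66, a ratio of 0.151. H3K27ac fell from 303 to 144 peaks, 0.475 (0.387 to 0.581), against 0.417 on the rest. The ratio in the region divided by that on the rest was 0.707 (0.361 to 1.39) for H3K9ac and 1.14 (0.920 to 1.41) for H3K27ac, so neither mark changed in the region by a factor that differed from the rest beyond counting error. Every bin of the region with a peak had fewer peaks after weaning for H3K9ac (10 of 10, with 90.4% of such bins over the genome), for H3K27ac (13 of 13, with 85.3%) and for RNA pol II (4 of 4, with 85.9%). With such backgrounds the counts of the acetylation marks are near those of the genome. For H3K9me3, both bins with a peak had more after weaning (with 66.2% over the genome). The counts of RNA pol II and H3K9me3 follow from an empty list in the region at the other time point. They were not compared with the genome.

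The fall in H3K27ac is given by bin as a description, with no test between bins. Bin 13 had 51 peaks after weaning and 67 before, a ratio of 0.761 (0.518 to 1.11). Bin 9 had a ratio of 0.560, bin 10 of 0.423 and bins 1, 14 and 15 of 0.238, 0.278 and 0.25. The interval of bin 13 overlapped those of bins 10, 1, 14 and 15. Without bins 9, 10 and 13 the ratio of the region was 0.296 (0.193 to 0.443). Since the lists differ in length over the whole genome, equal numbers of the widest peaks were also taken from both lists of a mark. The ratio then became 0.935 (0.740 to 1.18) for H3K27ac and 0.478 (0.211 to 1.02) for H3K9ac. Both lists are then equally long over the genome by construction, so these values set the region against the genome and do not measure the fall.

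A peak was called kept when it shared at least 1 bp with a peak of the same target at the other time point, and lost or gained otherwise. Of the 303 H3K27ac peaks before weaning, 201 were lost (66.3%, with 72.1% over the genome) and 102 were kept, 33.7% (28.6 to 39.2) against 27.4% on the rest of the chromosome. The difference was 6.22 percentage points (0.766 to 12.02). It rested on bin 13, where 36 of 67 peaks were kept, 53.7% (41.9 to 65.1). Without that bin the share was 28.0% and the difference from the rest 0.519 points (-5.17 to 6.85). For peaks wider than the median it was 5.46 points (-1.05 to 12.7), and under a reciprocal overlap of 50% it was -0.0296 points (-3.97 to 4.68). It was larger with all peaks extended by 1 kb, at 12.9 points (6.93 to 18.6), and with 0.5 Mb left out at both ends of the region, at 9.65 points (3.56 to 16.1). In bins 9 and 10, 14 of 50 and 28 of 78 peaks were kept.

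Seen from the list after weaning, 18 of the 144 H3K27ac peaks were gained (12.5%, with 23.1% over the genome) and 126 were kept, 87.5% against 74.8% on the rest, a difference of 12.7 points (5.70 to 18.0). All 33 peaks of bin 10 touched a peak from before weaning, and 24 of 28 in bin 9 and 43 of 51 in bin 13 did. This difference remained without bin 13, at 14.4 points (6.03 to 20.1), but was 6.42 points (-10.4 to 16.7) without bins 9, 10 and 13, 6.33 points (-4.80 to 14.2) for peaks wider than the median and 5.93 points (0.358 to 9.68) with all peaks extended by 1 kb. Under a reciprocal overlap of 50% it was -4.49 points (-12.3 to 4.10). Bins were again left out of the region only, and the rest kept its fullest bins.

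Kept peaks after weaning mostly lay within wider peaks from before weaning. Of the 126 kept H3K27ac peaks after weaning, 106 lay fully inside a peak from before weaning, 84.1% against 68.0% on the rest of the chromosome. The median ratio of the width of a kept peak to that of the peak it touched was 0.369, against 0.560 on the rest. In the region 6 of the 126 were wider than the peak they touched, and on the rest 91 of 651. Of the 102 kept peaks from before weaning, 21 were touched by more than 1 peak after weaning, and on the rest 76 of 572. Kept peaks were also the wide ones, with a median of 827 bp against 306 bp for lost peaks, and 569 against 306.5 bp on the rest of the chromosome.

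For H3K9ac, 97 of 103 peaks were lost (94.2%, with 93.4% over the genome). The 6 kept peaks were 5.83% of the list against 7.32% on the rest, a difference of -1.50 points (-5.72 to 5.14). In bin 10 none of the 33 H3K9ac peaks was kept. After weaning, 5 of the 11 H3K9ac peaks were gained (45.5%, with 55.7% over the genome). The 11 peaks were 200 to 418 bp wide, 3 each in bins 9 and 13, 2 in bin 15 and 1 each in bins 10, 12 and 14, and all 11 touched an H3K27ac peak from before weaning (with 71.8% over the genome, and 62.1% on the rest).

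**Figure D3:**
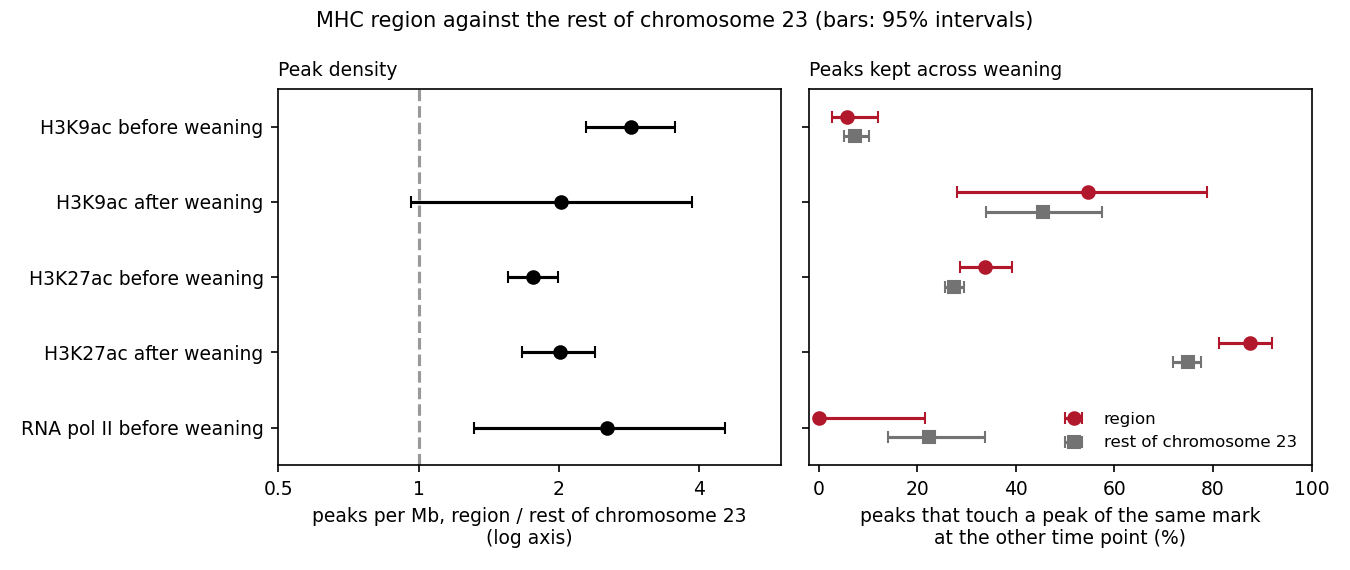
Left, peaks per Mb in the MHC region divided by peaks per Mb on the rest of chromosome 23 (log axis; dashed line at 1), with exact 95% intervals. Right, percentage of peaks that touch a peak of the same target at the other time point, in the region (red circles) and on the rest of the chromosome (grey squares), with 95% Wilson intervals. The 5 lists shown are H3K9ac and H3K27ac at both time points and RNA pol II before weaning. Their density ratios are above 1, with an interval that includes 1 for H3K9ac after weaning, and the kept shares are 87.5% and 74.8% for H3K27ac after weaning. The 0% for RNA pol II follows from its empty list after weaning.

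The third question was which targets shared positions. Before weaning, 97 of the 103 H3K9ac peaks touched an H3K27ac peak, 94.2% (87.9 to 97.3), with 90% over the genome and 89.7% on the rest of the chromosome. In the other direction, 79 of 303 H3K27ac peaks touched an H3K9ac peak, 26.1% (21.5 to 31.3), with 15.3% over the genome and 16.9% on the rest. That difference was 9.13 points (4.22 to 14.6). Without bins 9, 10 and 13 it was 1.58 points (-4.84 to 10.1), and under a reciprocal overlap of 50% it was 1.92 points (-0.917 to 5.69). With all peaks extended by 1 kb it was 18.4 points (12.4 to 24.3), and for peaks wider than the median 9.94 points (3.71 to 17.02). Without bin 13 alone it was 7.64 points (2.31 to 13.7). Here too, bins were left out of the region only, and the rest kept its fullest bins.

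H3K27ac peaks that touched H3K9ac before weaning were kept more often than the others. In the region, 58 of the 79 were kept, 73.4% (62.8 to 81.9, with 65.7% over the genome), against 44 of the other 224, 19.6% (15.0 to 25.3, with 21% over the genome). The shares on the rest of the chromosome were 56.4% and 21.6%. Peaks with H3K9ac were also wider, with a median of 918 bp against 324.5 bp in the region, and the part of width in this difference was not tested.

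After weaning, 8 of the 11 H3K9ac peaks touched an H3K27ac peak (with 69.3% over the genome) and 8 of the 144 H3K27ac peaks touched an H3K9ac peak, 5.56% (with 4.83% over the genome). RNA pol II before weaning touched 11 of the H3K9ac peaks (10.7%, with 7.07% over the genome) and 12 of the H3K27ac peaks (3.96%, with 2.07%). After weaning, no acetylation peak of the region touched 1 of the 3 H3K9me3 peaks there (over the genome, 14.2% of H3K9ac and 0.821% of H3K27ac peaks touched H3K9me3), and before weaning there was no H3K9me3 peak to touch.

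The 14 RNA pol II peaks before weaning lay on acetylated chromatin with 1 exception. In the region 13 touched an H3K27ac peak (with 76.3% over the genome) and 10 touched an H3K9ac peak (with 48.7%), and the differences from the rest of the chromosome, of 15.2 points (-10.5 to 28.0) and 22.2 points (-6.40 to 42.6), had intervals that included 0. If the RNA pol II labels are exchanged, the acetylation lists of the same time point are those after weaning, of which 12 of the 14 peaks touched H3K27ac and 1 touched H3K9ac (with 17.5% over the genome). Contact with H3K9me3 could not occur, since H3K9me3 had no peak in the region before weaning. The widest RNA pol II peak of the region, chr23:27332858-27334043 in bin 10, was 1186 bp long and also the widest of the chromosome in that list, where the rest reached 1091 bp. A row of 5 of the 14 peaks stood side by side in bin 13, from 28176229 to 28179841. The exception, chr23:28546205-28546419 in bin 15, touched no other list and lay 8951 bp from the nearest H3K27ac peak before weaning.

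By the labels, all 14 RNA pol II peaks were lost after weaning (with 80.7% over the genome); with the labels exchanged they would be gained. A kept share of 0 follows from the empty list at the other time point and was not compared with the rest. The nearest RNA pol II peaks after weaning lay 7.41 Mb before the region and 23.2 Mb after it. Of the positions with RNA pol II before weaning, 12 carried an H3K27ac peak after weaning, 85.7% (60.1 to 96.0), with 66% over the genome and 73.1% (61.5 to 82.3) on the rest.

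The 3 H3K9me3 peaks after weaning were narrow and isolated. They were chr23:25128468-25128739 in bin 1 and chr23:28583548-28583763 and chr23:28584503-28584707 in bin 15, with widths of 272, 216 and 205 bp, close to the lowest width in the lists of 200 bp. None touched a peak of another list (over the genome, 6.76% touched H3K9ac, 5.61% H3K27ac and 14% RNA pol II after weaning). Contact with RNA pol II after weaning could not occur, since by the labels it had no peak in the region. The nearest H3K27ac peaks after weaning lay 97152, 19925 and 20880 bp away, and those before weaning 57834, 13297 and 14252 bp away. All were gained (with 70% over the genome). That follows from the empty H3K9me3 list of the region before weaning and was not compared with the genome. For H3K9me3 the sequencing lane changed with the time point (lane 2 before and lane 1 after weaning), and the lane cannot be told apart from weaning.

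When overlapping peaks of the 8 lists were merged, the region had 327 merged stretches. Of these, 121 had peaks of at least 2 libraries (37.0%, with 29.5% over the genome), 58 of at least 3 (17.7%, with 10.1%), 16 of at least 4 (4.89%, with 2.34%) and 2 of 5 (0.612%, with 0.476%), and none had more. On the rest of the chromosome the shares were 31.2%, 9.98%, 2.81% and 0.911%, and 9 stretches reached 6 or more libraries. The commonest makeup in the region was H3K27ac before weaning alone, in 178 stretches (54.4%, with 55.7% on the rest). Their median width was 299.5 bp, against 295 bp on the rest. H3K27ac at both time points was found in 41 stretches (12.5%, with 14.3% on the rest). The same with H3K9ac before weaning was found in another 41 (12.5%, with 5.96% on the rest), with a median width of 944 bp against 935.5 bp on the rest.

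The 2 stretches with 5 libraries were chr23:28175772-28176825 (1054 bp) and chr23:28179309-28179937 (629 bp), both in bin 13, with both acetylation marks at both time points and RNA pol II before weaning. Between them lay chr23:28177053-28179244 (2192 bp), with 4 libraries. The widest with 4 libraries was chr23:27055066-27057656 in bin 9 (2591 bp), a single H3K27ac peak before weaning and the widest H3K27ac peak of the region, with both acetylation marks at both time points but no RNA pol II. Others with 4 were chr23:28272751-28275109 in bin 14, chr23:28087667-28090018 and chr23:28127570-28129531 in bin 13, chr23:27325515-27327518 and chr23:27331243-27332738 in bin 10, and chr23:27001833-27003398 in bin 9. Except for the one in bin 14, these had RNA pol II before weaning and no H3K9ac after weaning. The widest H3K9ac peaks were chr23:27491494-27492390 before weaning (897 bp) and chr23:28709884-28710301 after weaning (418 bp). The widest H3K27ac peak after weaning lay in bin 1, at chr23:25030083-25031316 (1234 bp), on a peak from before weaning and on H3K9ac before weaning.

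The peaks also stood in long rows. Peaks of 1 list no more than 12.5 kb apart were joined, a limit chosen after seeing the data. The row with the most peaks of the chromosome was one of H3K27ac before weaning in bin 13, from 28018047 to 28140698, with 53 peaks over 122.7 kb, where rows elsewhere had at most 42. It also held 18 H3K9ac and 3 RNA pol II peaks before weaning, and after weaning 44 H3K27ac peaks and 1 H3K9ac peak. The second row, from 27194972 to 27279086 in bins 9 and 10, had 31 H3K27ac peaks before and 9 after weaning, with 9 H3K9ac peaks before weaning. The third, from 27325025 to 27373787 in bin 10, had 22 and 10 H3K27ac peaks, with 15 H3K9ac and 3 RNA pol II peaks before weaning and no H3K9ac peak after. Rows of 10 or more peaks held 66.0% of the H3K27ac peaks of the region before weaning, against 40.1% on the rest of the chromosome. After weaning these shares were 41.7% and 23.9%. At a fixed limit rows are longer where peaks are denser, so these shares are not separate from the density ratios above. The part of density in them was not tested.

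**Figure D4:**
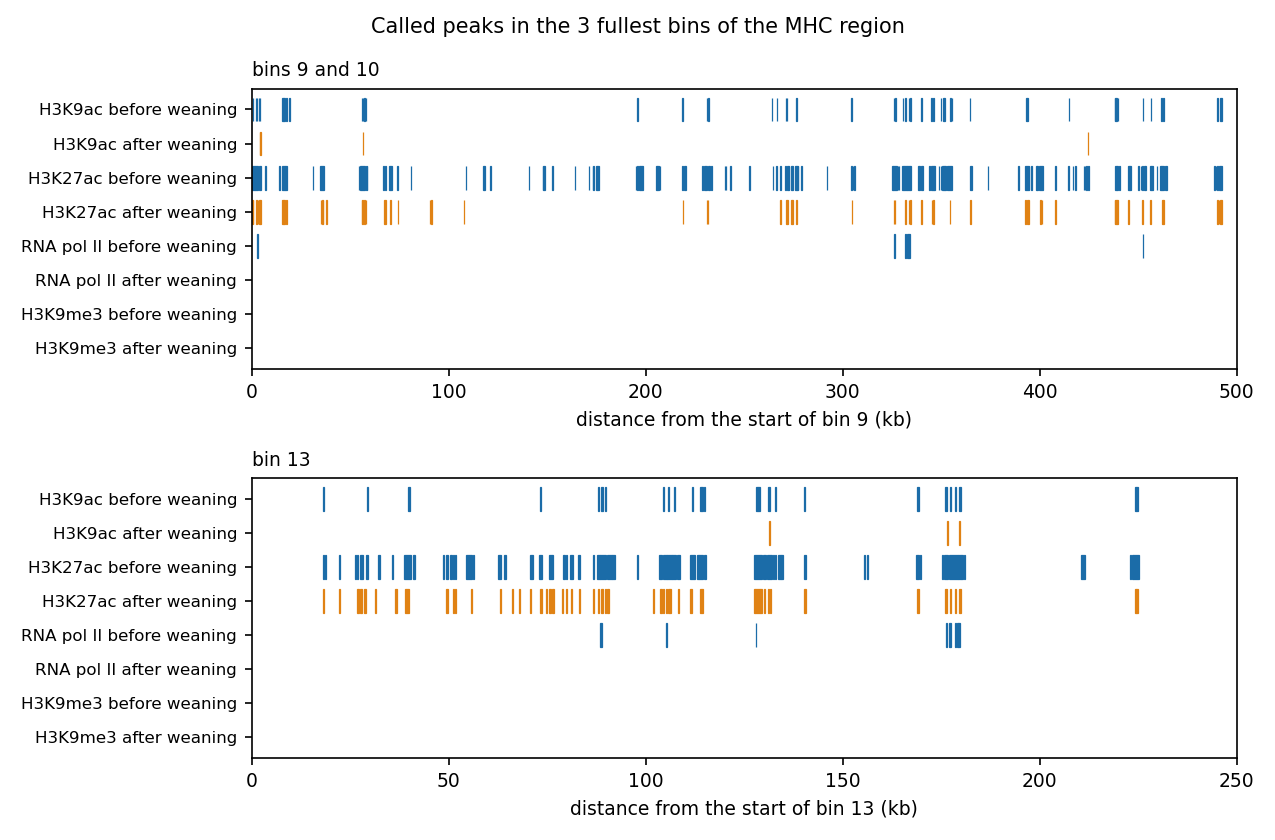
Called peaks in bins 9 and 10 (top) and bin 13 (bottom) of the MHC region, drawn as bars from peak start to peak end with a minimum line width, against the distance in kb from the start of the first bin shown. Each row is 1 library, before weaning in blue and after weaning in orange. In bin 13 the H3K27ac bars after weaning follow those before weaning along the row of 53 peaks, and 5 RNA pol II bars stand together to the right of that row.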

How the data were processed

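Rumen tissue was profiled by ChIP-seq with 75-nt reads on an Illumina HiSeq. The authors removed reads that failed the filter of the sequencer, aligned with BWA to UMD3.1.1, kept unique alignments with fewer than 2 mismatches and called peaks with MACS2 against an input library, at default settings. The submitters' processing notes also list Trim Galore 0.4.1. Keeping unique alignments leaves out reads from recent duplications, and the part of this in the empty bins was not tested. The deposited values are peak starts and ends in bp, 1 list per library, with no height, score or p-value. Read depth was not used here, since the lists do not hold it. The input has no list here. The labels give lane 1 for H3K9ac, lane 2 for H3K27ac and RNA pol II, and for H3K9me3 lane 2 before and lane 1 after weaning.

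Positions were read as 1-based with both ends included. Peaks were counted over the region, over bins of 250 kb and windows of 4 Mb from their starts, and set against the rest of chromosome 23 (48.5 Mb up to its last peak end). Peaks touched when they shared at least 1 bp. Shares have Wilson intervals, ratios exact conditional intervals, differences of shares Newcombe intervals, medians order-statistic intervals and ratios of ratios log-normal intervals, at 95% and for counting error only. No p-value was computed, since each group holds 1 library. Shares over the genome count all peaks, bins or merged stretches of the lists. Named regions were the widest peak of each list, merged stretches with the most libraries (10, ties by width), the fullest and emptiest bins and the 3 longest gaps. The lone RNA pol II peak, the row of 5 such peaks and the peak rows were named after their values were seen. Region, lists and bins were chosen with earlier results of these data known. Gene names and their order came from RefSeq on ARS-UCD2.0, with no coordinates taken. Leaving out bins or the third window, and the 12.5 kb limit, were chosen after seeing the data. The functions were tested on simulated data. Python 3.11.15, pandas 2.3.3, numpy 2.4.6 and scipy 1.17.1 were used.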

Additional observations from a re-analysis of the deposited data

Results flagged for a closer look

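H3K9me3 moved in the opposite direction to the acetylation marks in the MHC region and, by the labels, to RNA pol II. It had 0 peaks before weaning and 3 after, whereas H3K9ac went from 103 to 11, H3K27ac from 303 to 144 and RNA pol II from 14 to 0. If the RNA pol II labels are exchanged, as the text of the study has them, RNA pol II moved with H3K9me3. The difference between targets was not tested, since each target has 1 library per time point. Over the genome the H3K9me3 list was also the longer one after weaning (2410 and 4170 peaks), and its libraries were run on different lanes. No sample could be compared with others of its group, since each group holds 1 library.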

How the results depend on the processing

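No paired analysis was possible because each group holds 1 library. Of 97 alternative values for 27 results, 63 stayed within the 95% interval of the reported value and 34 did not. The density ratios of H3K9ac and H3K27ac at both time points and of RNA pol II before weaning stayed above 1, but the interval of RNA pol II included 1 with peaks within 1 kb merged (1.99, 0.908 to 3.91) and without bins 9, 10 and 13 (3.02, 0.0613 to 30.5), and that of H3K9ac after weaning excluded 1 against the genome, without the third window and without bins 9, 10 and 13. The other 3 lists, below 1, were recomputed without the third window only. Against chromosomes 1 to 29 and X they were 4.79 for H3K9ac before weaning and 2.72 and 3.15 for H3K27ac before and after weaning. For H3K27ac before weaning they were 1.52 with peaks within 1 kb merged and 2.17 by covered length, and after weaning 2.47 with 0.5 Mb left out at both ends of the region. Without bins 9, 10 and 13 and as large a share of the fullest bins elsewhere, added after seeing the data, they were 1.53 and 1.50 for H3K27ac before and after weaning and 6.90 (1.48 to 27.2) for H3K9ac after weaning, with 4 region peaks left. For that list bin 15 held more peaks than bin 10, so the 3 bins were not its fullest, while the rest lost its own fullest bins.

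The ratio of H3K27ac peaks after to before weaning was 0.612 merged within 1 kb, 0.353 for peaks wider than the median, 0.317 by covered length, 0.935 with equal numbers of the widest peaks and 0.296 without bins 9, 10 and 13. For H3K9ac, equal numbers gave 0.478. Equal numbers make both lists equally long over the genome, so 0.935 and 0.478 set the region against the genome only.

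Kept shares moved most with the overlap rule. A reciprocal overlap of 50% gave 15.2% before and 31.9% after weaning for H3K27ac, and extension by 1 kb gave 63.0% and 93.8%, with 18.4% and 81.8% for H3K9ac. H3K27ac before weaning was at 28.3% for wide peaks and 28.0% without bin 13. Under the reciprocal overlap, 24.3% of H3K9ac peaks touched H3K27ac before weaning and 8.25% the reverse, and 14.3% and 42.9% of RNA pol II peaks touched H3K27ac and H3K9ac. With extension, 100% of H3K9ac peaks touched H3K27ac before weaning, 54.1% of H3K27ac peaks touched H3K9ac before and 13.9% after weaning, and 92.9% of RNA pol II peaks touched H3K9ac. Merging raised median widths to 373 bp (H3K9ac) and 988 bp (H3K27ac) before weaning and 467.5 bp (H3K27ac) after weaning. Shares of peaks in the fullest bins stayed within their intervals with shifted or 500 kb bins.

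The lists hold no scores, so a weaker peak cannot be told from a stronger one, and a list with few peaks limits what can be seen: an absent peak says that none passed the caller's threshold.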
